A study of Mus musculus with 6 samples.

Results

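The genes described here lie near Pax6 on mouse chromosome 2. They are Elp4, Immp1l, Rcn1, Wt1, Qser1, Ccdc34, Lmo2, Rag1, Rag2 and Caprin1, and every probe set that the array annotation gives to only that gene was taken. This gave 19 of the 22626 probe sets tested, with 6 for Caprin1, 3 for Qser1, 2 each for Elp4 and Ccdc34 and 1 for each of the other genes. Lens RNA of 3 Pax6 heterozygous and 3 wild type mice, each aged 1 day after birth, was hybridized to Affymetrix arrays, and every array held RNA pooled from the left and right lens of its own mouse. The heterozygous genotype was Pax6 lacZ/+, a targeted allele that carries lacZ, and the wild type mice were of the NMRI background; neither the background of the heterozygous mice nor whether the genotypes shared litters is stated for the RNA samples, so strain and genotype cannot be told apart. The lacZ allele is inherited together with the chromosome 2 DNA around it, so for genes this close the dose of Pax6 and the flanking DNA cannot be told apart. The 10 genes were chosen by their position, at a time when the genotype differences in these arrays were already known, and a Qser1 probe set and the Rag2 probe set are on the list of differing genes that the study drew from these samples. Their genotype differences are therefore given as a description.

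Pax6 is a paired and homeodomain transcription factor without which no lens forms, and some of its enhancers lie at a distance, among them elements inside introns of the neighboring gene Elp4. In humans the same gene order holds WT1, RCN1, PAX6 and ELP4, and deletions across it cause aniridia together with Wilms tumor. Elp4 encodes a subunit of Elongator, a complex that modifies transfer RNA, and Immp1l encodes a peptidase of the inner mitochondrial membrane. Rcn1 encodes a calcium-binding protein of the endoplasmic reticulum, and Wt1 a zinc finger transcription factor of the kidney and gonad. Caprin1 encodes an RNA-binding protein of stress granules. Lmo2 encodes a LIM-only bridging protein of blood and endothelial cells, and Rag1 and Rag2 encode the recombinase that cuts antigen receptor genes in lymphocytes. Qser1 encodes a large glutamine- and serine-rich protein and Ccdc34 a coiled-coil protein.

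In the RefSeq gene order Rcn1 is next to Pax6 on one side and Elp4 on the other, and Immp1l follows Elp4. Elp4 and Immp1l start head to head on opposite strands, 74 bases apart, so that their promoter windows share 173 bases. The shared promoter is shown because the 2 genes can be compared as a pair that begins at the same place. It is given on the strand of Immp1l, chr2:105904388-105904687 (GRCm38.p6, plus strand), with the 73 bases between the starts in capitals. Transcription of Immp1l starts to the right of the capitals, and that of Elp4 to their left on the other strand.
Immp1l and Elp4 shared promoter: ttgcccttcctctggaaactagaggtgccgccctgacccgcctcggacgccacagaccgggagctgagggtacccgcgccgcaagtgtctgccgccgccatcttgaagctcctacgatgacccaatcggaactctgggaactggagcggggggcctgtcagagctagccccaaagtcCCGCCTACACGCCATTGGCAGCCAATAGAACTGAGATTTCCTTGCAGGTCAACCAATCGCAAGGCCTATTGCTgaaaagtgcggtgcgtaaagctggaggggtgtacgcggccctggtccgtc
The 73 bases hold 3 copies of the motif CCAAT when both strands are read, a motif that 37.4% of the 32851 RefSeq promoter windows of 300 bases contain. Promoters of 7 of the 10 genes were in the sequence table, those of Elp4, Immp1l, Qser1, Ccdc34, Caprin1, Rag1 and Rag2. They differed widely in CG dinucleotides, of which the median promoter of the table has 7. The Caprin1 promoter has 43 and the Qser1 promoter 49, whereas those of Rag1 and Rag2 have 3 each. Caprin1 and Rag2 are shown as a broadly used and a lymphocyte gene, each 5′ to 3′ on its own strand (chr2:103797029-103797328, minus strand, and chr2:101624462-101624761, plus strand, both GRCm38.p6), with the CG dinucleotides in capitals.
Caprin1 promoter: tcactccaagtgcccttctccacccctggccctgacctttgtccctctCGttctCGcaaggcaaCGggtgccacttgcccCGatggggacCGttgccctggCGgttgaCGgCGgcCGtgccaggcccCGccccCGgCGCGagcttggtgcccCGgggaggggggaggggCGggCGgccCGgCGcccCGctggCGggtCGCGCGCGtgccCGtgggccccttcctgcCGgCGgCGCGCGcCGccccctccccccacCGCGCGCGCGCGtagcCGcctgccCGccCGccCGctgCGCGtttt
Rag2 promoter: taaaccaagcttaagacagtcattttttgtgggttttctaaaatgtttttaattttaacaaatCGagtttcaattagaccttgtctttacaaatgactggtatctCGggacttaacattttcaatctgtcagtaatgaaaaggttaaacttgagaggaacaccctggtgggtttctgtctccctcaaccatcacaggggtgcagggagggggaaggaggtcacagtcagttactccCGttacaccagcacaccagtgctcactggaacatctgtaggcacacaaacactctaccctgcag
The motif GGGCGG, read on both strands, occurs 6 times in the Caprin1 window and not in the Rag2 window, and is found in 35.7% of all windows. TATAAA occurs in none of the 7 windows and in 13.6% of all windows.

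Signals are linear intensities, and because they depend on the probes of each probe set they are not compared between genes as amounts. The 33 probe sets of olfactory receptor genes, which belong to the nose, served as a guide to background, with a 95th percentile of 13.5. Of the 19 probe sets, 15 lay above this guide in all 6 samples and 3 in none, those of Rag2 and Wt1 and the dimmer one of Ccdc34. The Rag1 probe set lay above it in 5. Among markers of the labelled tissue 8 of 9 measured lens genes, such as the crystallins, lay above the guide in every sample and Foxe3 in 1. None of the 12 measured lymphocyte genes was above it in all 6, and 6 of them, Cd3e, Cd3d, Cd8a, Cd79a, Cd79b and Ms4a1, were above it in none. Pax6 itself read 942, 1170 and 882 at its brightest probe set in heterozygous lenses, against 1169, 1760 and 963 in wild type lenses, 76.9% of the wild type mean, with overlapping ranges. Its 5 probe sets did not share a sign, since 1437816_at differed by 0.19 and was higher in 3 of 3 pairs, whereas 1452526_a_at differed by −0.69 and the other 3 by −0.11 to −0.48. Each difference is of log2 signals, with wild type subtracted from heterozygous, and carries its standard error from limma.

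**Figure D1:**
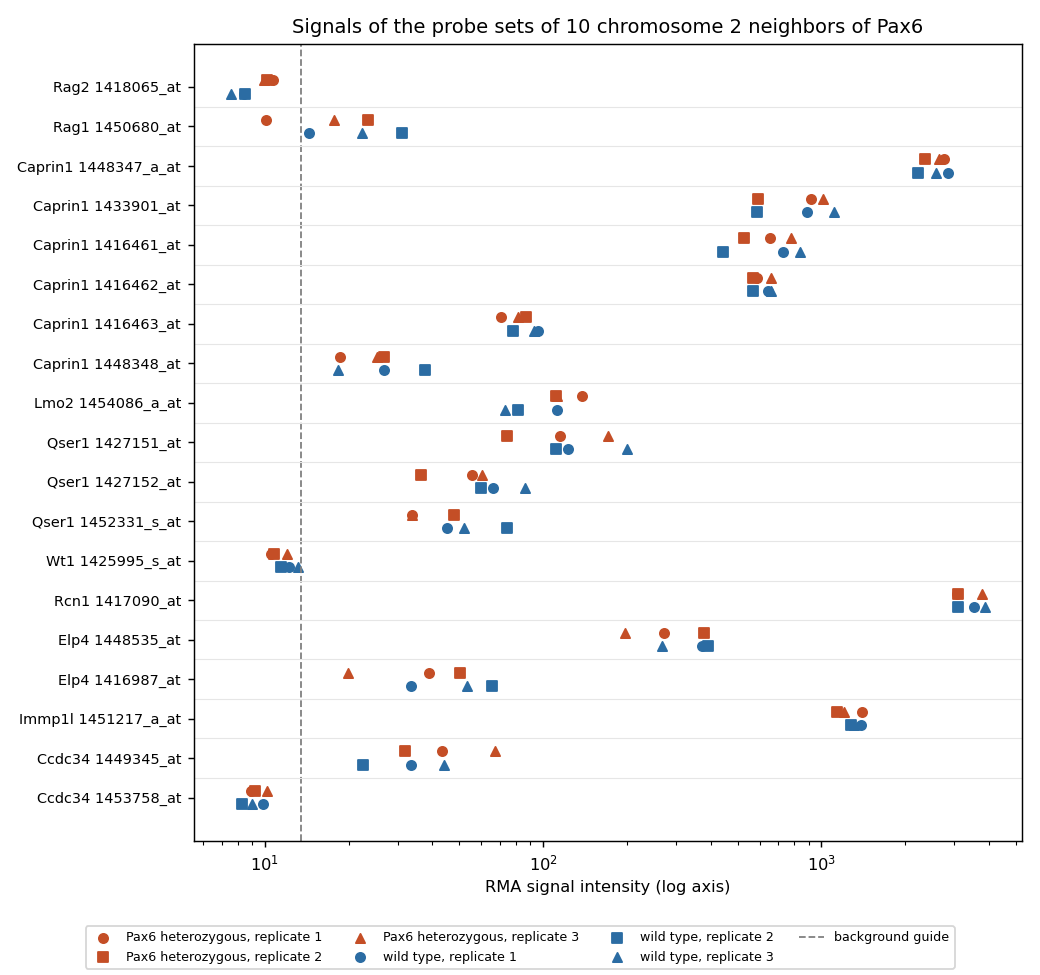
Signal of each probe set (RMA intensity, log axis) in the 3 Pax6 heterozygous samples (upper points of each row) and the 3 wild type samples (lower points); symbols give the replicate number and the dashed line the background guide of 13.5. Rag2, Wt1 and the dimmer Ccdc34 probe set lie left of the line in all 6 samples, and the genotypes are fully apart only for Rag2.

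Rcn1, the neighbor of Pax6 on the side of Wt1, had overlapping signals in the genotypes. It read 3080, 3092 and 3763 in heterozygous replicates 1, 2 and 3, against 3543, 3106 and 3861 in wild type replicates 1, 2 and 3, a difference of −0.08 ± 0.14. The highest value of both genotypes was in replicate 3. Wt1, which lies beyond Rcn1 with Them7, not analysed here, between them, read 10.5, 10.8 and 12.0 in heterozygous lenses, against 12.2, 11.5 and 13.1 in wild type lenses (−0.14 ± 0.12), all below the background guide.

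On the other side of Pax6, both probe sets of its neighbor Elp4 had lower means in heterozygous lenses. The brighter one, 1448535_at, read 273, 379 and 197 in heterozygous replicates 1, 2 and 3, against 373, 392 and 267 in wild type lenses, so that the heterozygous mean was 82.2% of the wild type mean (−0.31 ± 0.27). All 3 same-numbered pairs were lower, by 0.45, 0.05 and 0.44 on the log2 scale, but the ranges overlapped. The difference was −0.077 without heterozygous replicate 3 and −0.55 without heterozygous replicate 2. Such a fit keeps the same-numbered sample of the other genotype. Its shift and a difference between replicate numbers therefore cannot be told apart, here and below. The dimmer one, 1416987_at, read 38.8, 50.2 and 19.9 in heterozygous lenses and 33.5, 65.6 and 53.5 in wild type lenses. Its pairs differed by 0.21, −0.39 and −1.43, with a mean of −0.54 ± 0.40, and heterozygous replicate 3 was the lowest of the 6 samples; without it the difference was −0.15. The head-to-head gene Immp1l, which starts in the promoter shown above, read 1404, 1140 and 1205 in heterozygous lenses and 1391, 1277 and 1311 in wild type lenses. Its difference was −0.09 ± 0.13, with overlapping ranges. Elp4 and Immp1l also ordered the samples differently, since replicate 2 was the highest in Elp4 and the lowest in Immp1l in both genotypes.

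Qser1 had lower signals in heterozygous lenses at each of its 3 probe sets and in each of the 3 pairs. The probe set on the study's list, 1452331_s_at, read 33.9, 47.9 and 33.9 in heterozygous lenses, against 45.0, 74.3 and 52.1 in wild type lenses, a difference of −0.55 ± 0.24. Only heterozygous replicate 2 reached into the wild type range. The second, 1427152_at, read 55.4, 36.5 and 60.2 in heterozygous lenses and 66.1, 59.8 and 86.4 in wild type lenses (−0.50 ± 0.24), again with a single heterozygous value, that of replicate 3, inside the wild type range. The brightest, 1427151_at, read 115, 74.0 and 171 in heterozygous lenses and 123, 111 and 200 in wild type lenses, a smaller difference of −0.30 ± 0.36. That difference was 0.0063 without heterozygous replicate 2, −0.044 without wild type replicate 3 and −0.60 without heterozygous replicate 3. The same-numbered pairs of this probe set differed by −0.09, −0.59 and −0.22. The suffix _s_at marks a probe set whose probes can match transcripts of more than 1 gene.

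Caprin1, with 6 probe sets, gave no probe set whose genotypes were apart. The brightest, 1448347_a_at, read 2756, 2345 and 2633 in heterozygous lenses and 2856, 2223 and 2581 in wild type lenses, a difference of 0.02 ± 0.14. The next ones were 1433901_at at −0.02 ± 0.30, 1416461_at at −0.0043 ± 0.27 and 1416462_at at −0.05 ± 0.12. Both dim ones stood lower, with 1416463_at between 70.5 and 87.0 in heterozygous lenses and between 78.2 and 95.9 in wild type lenses (−0.16 ± 0.14). The dimmest, 1448348_at, lay between 18.6 and 26.8 in heterozygous lenses and between 18.4 and 37.8 in wild type lenses (−0.19 ± 0.29). The 4 bright probe sets were thus all within 0.05 of no difference.

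Lmo2 had higher signals in heterozygous lenses in each same-numbered pair. It read 138, 111 and 112 in heterozygous replicates 1, 2 and 3, against 112, 81.2 and 72.8 in wild type lenses, and the heterozygous mean was 136% of the wild type mean (0.46 ± 0.19). Replicate 1 was the highest in both genotypes, and wild type replicate 1 lay between the heterozygous values. Lmo2 is used by endothelial cells, and the summed signal of the 10 measured endothelial markers was also highest in replicate 1. It was 3447, 1038 and 1066 in heterozygous lenses and 1942, 832 and 827 in wild type lenses. Most of it came from Flt1 (740 ± 966 in heterozygous and 411 ± 436 in wild type lenses, SD) and Tek (716 ± 183 and 498 ± 113). Of the 10 markers 9 had a difference above 0, with a median of 0.40, and 7 lay above the background guide in all samples. Some other lists, but not all, were also highest in replicate 1 in both genotypes. The macrophage markers, 9 of 10 with a difference above 0 and a median of 0.33, summed to 1822, 1342 and 330 in heterozygous lenses and 1602, 571 and 528 in wild type lenses. The podocyte and mesothelium markers, 4 of 6 above 0, summed to 1606, 808 and 1135 in heterozygous lenses and 1217, 674 and 898 in wild type lenses. Most of that sum came from Podxl (736 ± 276 in heterozygous and 538 ± 172 in wild type lenses, SD) and Synpo (401 ± 126 and 341 ± 94.2). Only 2 of these 6 markers lay above the guide in all samples, and Nphs1 and Msln lay above it in none. The mesenchyme markers went the other way by genotype, with 1 of 7 above 0 and a median of −0.25. They summed to 951, 561 and 526 in heterozygous lenses and 1119, 728 and 1139 in wild type lenses. The retina markers, 5 of 7 above 0 with a median of 0.22, summed to 547, 580 and 284 in heterozygous lenses and 317, 270 and 265 in wild type lenses. The lens markers were lowest in replicate 1, at 70823, 88065 and 79001 in heterozygous lenses and 72937, 89890 and 80146 in wild type lenses. The part of any of these cells in the Lmo2 signal was not tested, and in whole lenses more cells of a type and more RNA per cell cannot be told apart. The red blood cell markers, with 5 measured, summed to 51.9 to 65.0 in heterozygous and 53.6 to 62.7 in wild type lenses, and 4 of them, Gata1 among them, were above the guide in no sample.

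Rag1 and Rag2, which face each other on opposite strands, had signals near background, where no direction is read from a difference. Rag2 read 10.7, 10.2 and 9.94 in heterozygous lenses, against 8.43, 8.48 and 7.58 in wild type lenses, and was the only one of the 19 probe sets whose genotypes did not overlap (0.33 ± 0.11). All 6 values lay under the background guide. Rag1 read 10.1, 23.4 and 17.7 in heterozygous lenses, against 14.5, 31.0 and 22.3 in wild type lenses, lower in each pair (−0.42 ± 0.39) with wide overlap. Without heterozygous replicate 1 the Rag1 difference was −0.080, and without wild type replicate 2 it was −0.16. The same-numbered pairs of Rag1 differed by −0.52, −0.40 and −0.33. The lymphocyte markers summed to 129 to 162 in heterozygous and 129 to 173 in wild type lenses.

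Ccdc34, at the far end of the stretch, read 43.4, 32.0 and 67.0 in heterozygous lenses and 33.6, 22.6 and 44.0 in wild type lenses at the probe set 1449345_at (0.49 ± 0.34). It was higher in each pair, by 0.37, 0.50 and 0.61, but replicates of the same genotype differed by more than that. The difference was 0.21 without heterozygous replicate 3 and 0.24 without wild type replicate 2. The other probe set, 1453758_at, stayed between 8.95 and 10.2 in heterozygous lenses and between 8.31 and 9.84 in wild type lenses (0.07 ± 0.12), below the guide.

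**Figure D2:**
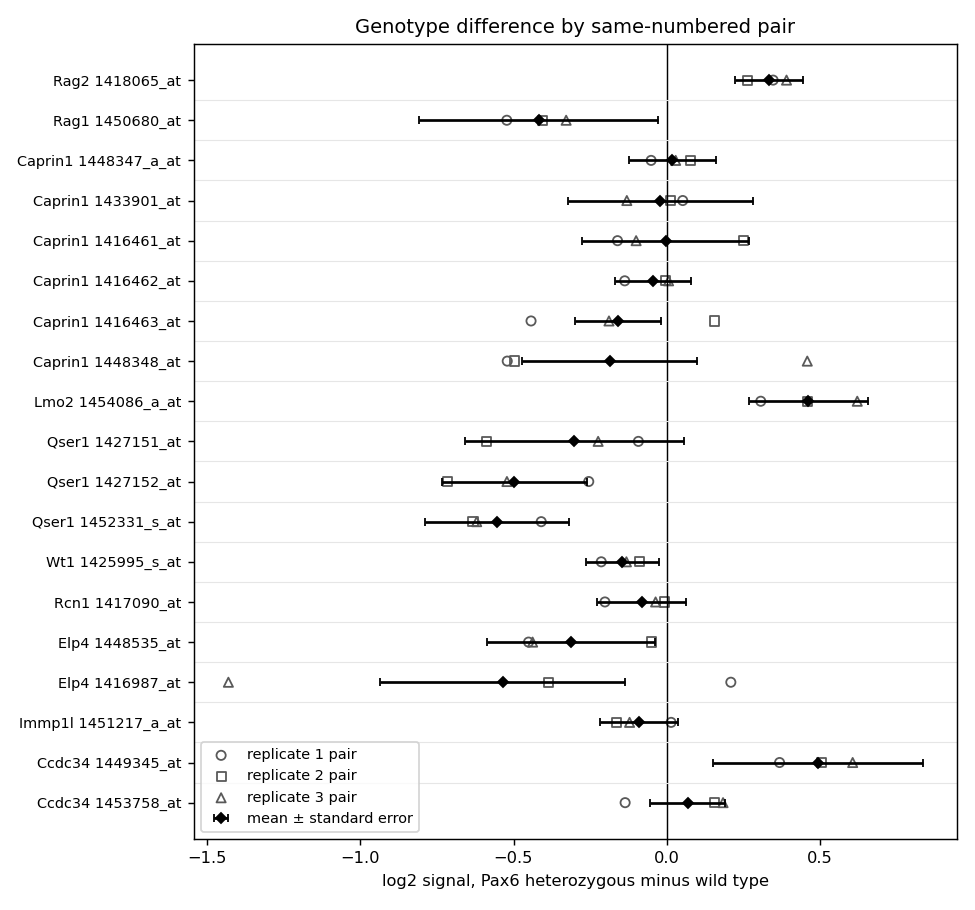
Log2 difference between Pax6 heterozygous and wild type lenses for each probe set; open symbols are the 3 same-numbered pairs and diamonds the mean with its standard error from limma. All 3 pairs lie below 0 at each Qser1 probe set and above 0 for Lmo2, Rag2 and Ccdc34 1449345_at, and the Elp4 probe set 1416987_at has pairs from 0.21 to −1.43.

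Over all 22626 probe sets 10527 differences were above 0 and 12099 below, with a median of −0.01. Over the 19 probe sets, 5 differences were above 0 and 14 below, and the median was −0.09. Without wild type replicate 2 the median was −0.17, and without heterozygous replicate 2 it was −0.03. With limma 0 of the 19 passed an adjusted p of 0.05, as did 0 of all probe sets (0%). At an unadjusted p under 0.05 there was 1 of the 19, Rag2, where 1.99% of all probe sets reached that level (0.977% higher and 1.01% lower in heterozygous lenses). The methods' t-test gave 1 of the 19 at p under 0.05, Rag2 (2.94% of all). At the methods' own threshold for that test it gave 2, Rag2 and Lmo2 (5.86% of all). The Qser1 probe set on the study's list was not among them here. The study also selected genes by a second test, Pavlidis Template Matching, which was not run here. Whether the study's full selection would return that probe set was therefore not tested. With the replicate number as a block, 7 of the 19 had an unadjusted p under 0.05 (9.03% of all), those of Rag2, Rag1, Lmo2, Ccdc34 1449345_at, Elp4 1448535_at and Qser1 1427152_at and 1452331_s_at, and 0 passed after adjustment (0.00884% of all). Non-overlap was found for 1 of the 19 and for 6.18% of all probe sets (2.65% higher and 3.53% lower). A difference in 3 of 3 pairs was found for 3 higher and 7 lower probe sets, where 13.8% of all were higher and 17.1% lower in every pair. Since the genes were chosen with this comparison known, nothing is read from these shares.

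The samples also differed by replicate number, a comparison that the choice of genes did not use. A limma F-test of the replicate number, with genotype in the fit, called 7 of the 19 probe sets at an adjusted p under 0.05, where 19.4% of all probe sets, 32.5% of those above the background guide in all samples and 35% of those with a median signal of at least 50 were called. Rag1 had the smallest adjusted p (limma, 0.00940), with replicate 2 at 0.53 above and replicate 1 at 0.63 below its mean on the log2 scale. Its signals, 10.1 to 31.0 against a background guide of 13.5, were near background, so no direction is read from these values. Ccdc34 1449345_at (limma, adjusted p = 0.0127), Caprin1 1433901_at (0.0164), Caprin1 1416461_at (0.0399) and Qser1 1427151_at (0.0200) were lowest in replicate 2 and highest in replicate 3. Caprin1 1433901_at read 920, 591 and 1017 in heterozygous replicates 1, 2 and 3, against 888, 586 and 1113 in wild type lenses, so the replicates differed while the genotypes did not separate.

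Elp4 1448535_at (limma, adjusted p = 0.0406) and Qser1 1452331_s_at (0.0389) were highest in replicate 2. The probe sets of Qser1 therefore moved in opposite ways with the replicate number, with 1427151_at at −0.47 and 1452331_s_at at 0.37 in replicate 2, although both were lower in heterozygous lenses. Of the 5 Pax6 probe sets, 1452526_a_at was also highest in replicate 2, at 157 in heterozygous and 249 in wild type lenses, and was called (limma, adjusted p = 0.00893). The brightest one was highest in replicate 2 too, at 1170 in heterozygous and 1760 in wild type lenses, and was not called (limma, adjusted p = 0.0614). Rcn1, Immp1l, Wt1, Lmo2 and Rag2 had no call. However, Rcn1 was called with an intensity trend and robust prior (27.8% of all probe sets). Lmo2 was called in a fit of only those with a median signal of at least 50 (50.2% of all in that fit).

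These calls were sensitive to the number of samples. When any 1 sample was left out, 1 to 4 of the 19 were called, and the share over all probe sets was between 6.82% and 10.3%. Only Rag1, with signals near background, was called in each of these 6 fits. It was alone without heterozygous replicate 2 or 3 or wild type replicate 3. Qser1 1427151_at was called beside it without wild type replicate 2. Without replicate 1 of either genotype, Rag1, Qser1 1427151_at, Caprin1 1433901_at and Ccdc34 1449345_at were called. What the replicate numbers share is not stated in the methods.

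**Figure D3:**
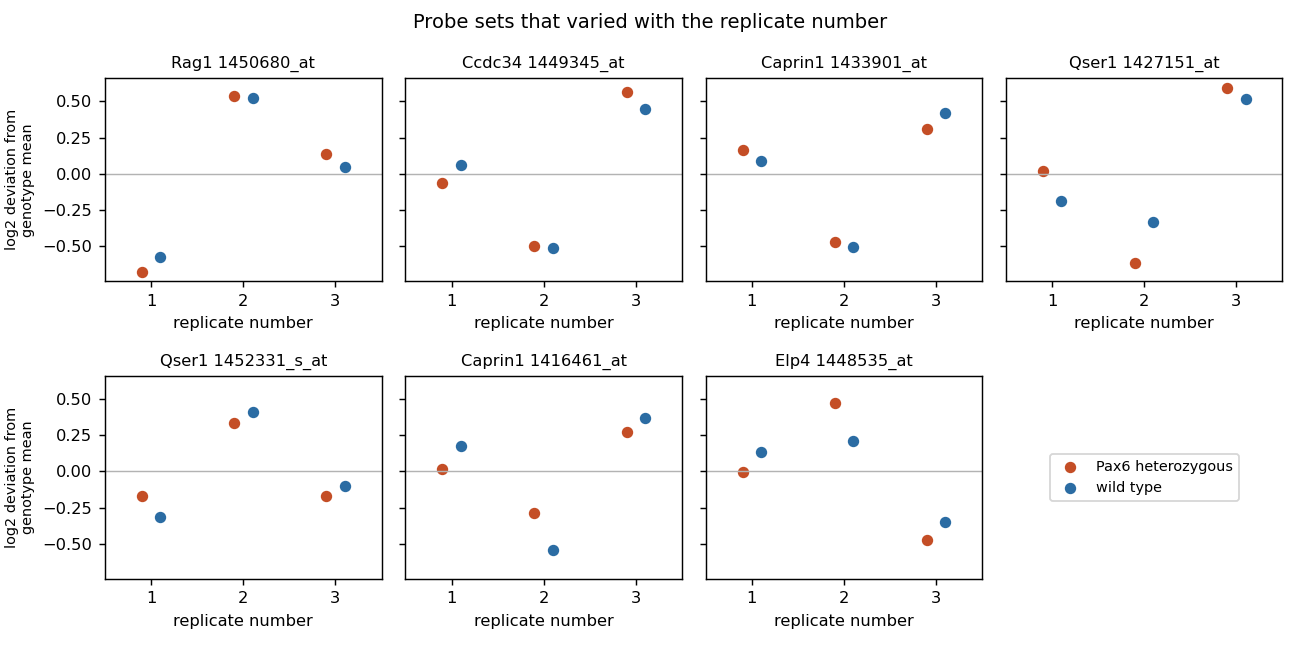
Log2 deviation of each sample from its genotype mean (vertical axis) by replicate number, for the 7 probe sets that varied with the replicate number; left points are Pax6 heterozygous and right points wild type samples. Same-numbered samples lie close together because these probe sets were picked by the F-test of the replicate number. Replicate 2 is the highest in Rag1, Qser1 1452331_s_at and Elp4 and the lowest in the other 4.

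The 10 genes were then set among all measured genes within 5 Mb of Pax6. RefSeq places 57 other protein-coding genes there, and 38 genes with 71 probe sets were measured, the 10 included. The median difference over the 71 was −0.03, with 30 above 0 and 41 below. For the 52 probe sets of the other 28 genes it was −0.02, with 25 above and 27 below. Without wild type replicate 3 the median over the 71 was 0.03, without heterozygous replicate 2 it was 0.01, and without heterozygous replicate 3 it was −0.10. Genotypes did not overlap for 7 of the 71, those of Rag2 and 6 others, against 6.18% of all probe sets.

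Commd9, a COMM domain gene a few genes away from Rag1, stood apart from its neighbors at a single probe set. Its probe set 1438644_x_at read 206, 177 and 201 in heterozygous lenses, against 48.0, 30.2 and 42.9 in wild type lenses (2.29 ± 0.19; limma, adjusted p = 0.180, and 0.0357 with the replicate block). Of its other 2 probe sets, 1454781_x_at differed by 0.25 without overlap and 1428155_at by 0.20 with overlap. The probe sequences were not available here, so whether 1438644_x_at reads RNA of Commd9 alone was not tested. Cd59a, which encodes an inhibitor of complement, read 125, 113 and 151 in heterozygous lenses, against 173, 172 and 175 in wild type lenses (−0.42 ± 0.14; limma, adjusted p = 1.00), and its other probe set differed by 0.05. The remaining ones without overlap were probe sets of Fbxo3, Bbox1 and Lin7c, all with means under the background guide, and differed by −0.22, 0.21 and 0.09. Dnajc24, the gene after Immp1l, differed by 0.38 and 0.16 at its 2 probe sets.

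**Figure D4:**
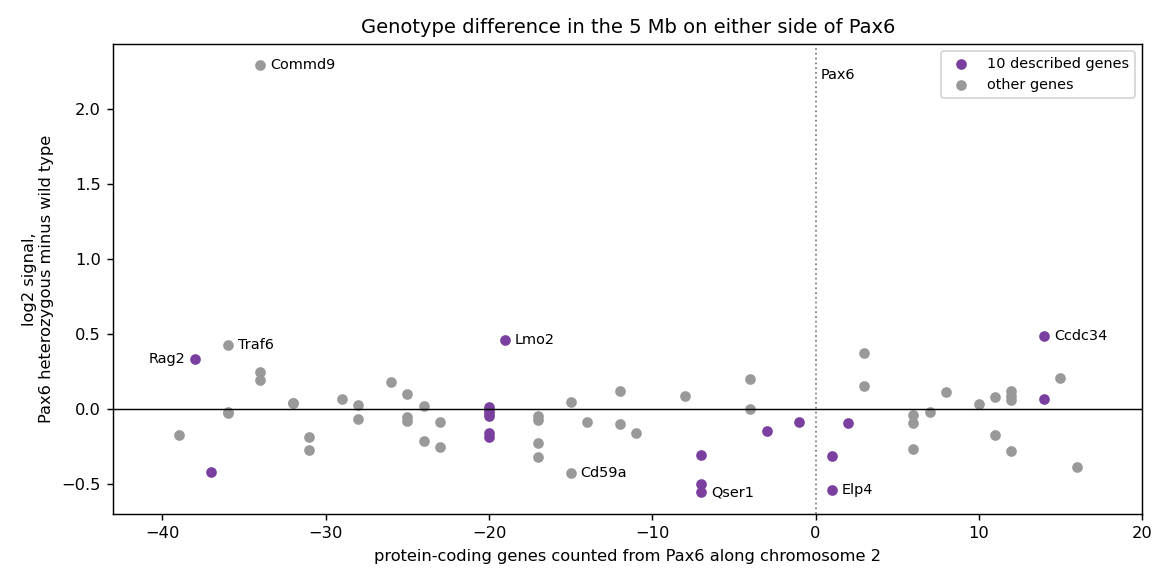
Log2 difference between Pax6 heterozygous and wild type lenses (vertical axis) for 70 of the 71 probe sets within 5 Mb of Pax6 (BC016548, at −0.03, is not among the protein-coding genes), placed by the number of protein-coding genes from Pax6 along chromosome 2 (horizontal axis). The described genes are in purple and the others in grey, and all but the Commd9 probe set at 2.29 lie between −0.55 and 0.49.

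Proteins that work together with those of the 10 genes were looked at by lists, and 0 probe sets of any list passed an adjusted p of 0.05 with limma (0% of all). The lists held 67 probe sets and include the described genes themselves. At an unadjusted p under 0.05 there was 1 of the 67, Rag2 (1.99% of all), and with the methods' t-test there were 2, Rag2 and a probe set of the CREC list (2.94% of all). Elongator was measured by 8 probe sets of 4 genes, with 5 differences above 0 and a median of 0.03. Elp2, its brightest member, read 1250 ± 191 in heterozygous and 1071 ± 113 in wild type lenses (SD, n = 3 mice each). The CREC family of calcium-binding proteins around Rcn1 had 6 probe sets with 1 above 0 and a median of −0.06, and Sdf4, the brightest after Rcn1, read 875 ± 272 in heterozygous and 899 ± 284 in wild type lenses.

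The stress granule list around Caprin1 had 28 probe sets of 11 genes with 5 above 0, 23 below and a median of −0.08. Over all 22626 probe sets 10527 were above 0 and 12099 below. The 28 include the 6 of Caprin1 itself, of which 1 was above 0, and ranged from −1.15 to 0.31. Genotypes did not overlap for 1 of the 28 (6.18% of all). Pabpc1, a poly(A)-binding protein, read 3247 ± 217 in heterozygous and 3757 ± 280 in wild type lenses (SD, n = 3 mice each), and G3bp2 3230 ± 369 in heterozygous and 3553 ± 427 in wild type lenses. The LMO complex list, with 13 probe sets of 10 genes, Lmo2 included, had a median of −0.04, and Lmo4, the brightest, read 126 ± 9.77 in heterozygous and 141 ± 8.83 in wild type lenses. The V(D)J recombination list had 11 probe sets of 8 genes with a median of −0.01, and Xrcc5, a DNA end-binding subunit used in all cells, read 311 ± 69.7 in heterozygous and 302 ± 95.8 in wild type lenses. The inner membrane peptidase list held only Immp1l among measured genes.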

How the data were processed

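Signal intensities of 6 Affymetrix mouse 430 arrays were used, 1 per mouse. Per the methods, the authors amplified and labeled 50 ng of total RNA and made the deposited intensities by RMA, a method that subtracts background, equalizes the arrays and summarizes probes into probe sets; the version is not given in the sources used here. Values are linear and carry no read depth, so the number of arrays limits the precision. From them log2 signals were computed. The 64 control probe sets were left out. Genes were assigned through the platform's annotation (20380 with 1 gene, 691 with several, 1555 with none), and 20351 were matched by Entrez number to RefSeq (GRCm38.p6), which also gave the gene order and promoters.

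The methods name the 430 2.0 array, whereas the deposited values and the annotation are those of the smaller A array. The data do not settle which array was hybridized. The members and gene lists were chosen with earlier results of these data known. The genes named were the members, Pax6, its neighbors, the 5 other probe sets within 5 Mb with the largest difference among those without overlap, genes starting next to a member on the opposite strand, and the brightest genes of each list; Dnajc24 and Lin7c were added after their values were seen.

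Genotypes were compared with limma 3.58.1 in R 4.3.3, adjusted by Benjamini-Hochberg over all probe sets, and figures drawn with matplotlib 3.10.9. The replicate number was tested by an F-test with genotype as a term. Same-numbered samples deviated together from their genotype means, with correlations of 0.645, 0.734 and 0.604, each over the bound of 0.1. The replicate block was therefore run as an alternative. Other pairs gave −0.0751 to −0.496. Deviations within a genotype sum to 0, so these negative values are not independent of the positive ones. The main genotype fit and the main replicate number fit were tested on simulated independent arrays with large planted shifts. The alternative settings were not simulated. P-values of the genotype comparison without a block rest on the spread between 3 mice per genotype, which limma moderates across probe sets. Those of the replicate block and of the F-test rest on the spread left after genotype and replicate number are both fitted.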

Additional observations from a re-analysis of the deposited data

How the results depend on the processing

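The number of the 19 probe sets with an unadjusted p under 0.05 between genotypes was 1, and it became 2 after median centring or quantile normalization, 0 of those with a median signal of at least 50, 7 with the replicate block, and from 0 to 3 when 1 sample was left out; it was 0 without heterozygous replicate 1 or wild type replicate 3, 2 without heterozygous replicate 2 and 3 without wild type replicate 1. Over all probe sets the 450 became 2042 with the replicate block and 125 at a median signal of at least 50, and 315 to 598 with 1 sample left out. The median difference over the 19 stayed below 0 in all alternatives run (−0.166 to −0.027 with 1 sample left out). That over the neighborhood was −0.082 in a 2 Mb window, −0.057 after median centring and −0.104 to 0.026 with 1 sample left out. The number of the 19 called by replicate number was 7 (19.4% of all probe sets). It was 7 after quantile normalization (18.8%), 8 after median centring (20.9%) and 8 with an intensity trend and robust prior (27.8%). In a fit of only those with a median signal of at least 50, 6 of 11 were called, where 50.2% of all in that fit were. With the replicate number alone in the fit there were 4 (16.7%). Leaving out 1 sample gave the counts stated above, an alternative added after the data were seen that leaves fewer samples. The replicate block changed no call at an adjusted p of 0.05 among the 19. With 3 mice per genotype small differences can go undetected, and signals near background carry little information.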

Other observations

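Traf6, a signaling adaptor next to Rag1, had 3 probe sets at 0.43 ± 0.42, −0.03 and −0.02, of which the first was the brightest (200 in heterozygous and 139 in wild type lenses, with overlapping ranges). Fbxo3, an F-box gene, had its brightest probe set at −0.32 ± 0.20 and its others between −0.22 and −0.05. Both genes were chosen after their values were seen.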
